A study of Mus musculus with 23 samples.

Results

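The interferon-stimulated genes described here are 41 protein-coding mouse genes, picked by symbol from a list of genes known to be induced by type I interferon. They were chosen with earlier results of these data known. Each symbol matched 1 of the 53090 gene identifiers in the deposited tables, and all 41 genes passed the filter on low counts. Messenger RNA was sequenced from microglia, the resident macrophages of the brain, of female C57BL/6 mice in 23 libraries. There were 7 libraries of young and 5 of old mice, and after repopulation 3 of young and 8 of old mice. In the repopulated groups microglia had been removed with the CSF1R inhibitor PLX5622, given in AIN-76A chow at 1200 ppm, and had then returned, while the other groups ate chow without the drug. CSF1R is the receptor whose signal keeps microglia alive. The sources used here do not state the ages, the length of the drug diet or the time allowed for return. No transgene or mutant allele was named for any group. The protocol texts name both a magnetic CD11b selection followed by culture and a flow-cytometric sort, and CD11b is also carried by monocytes and other macrophages.

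Type I interferons bind the receptor made of IFNAR1 and IFNAR2, whose kinases JAK1 and TYK2 phosphorylate STAT proteins. STAT2 and IRF9 are subunits of the complex ISGF3, which binds the interferon-stimulated response element (ISRE) in the promoters of its target genes. The targets include the transcription factor IRF7, sensors of foreign nucleic acid, and effectors that block viral translation, replication or entry. In microglia this programme has been described in ageing and disease as an interferon-responsive state.

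The promoters are shown because several of these genes carry the element in the bases just before their start. Promoter windows of 300 bases, 250 before and 50 after the RefSeq start (GRCm38.p6), were found for 29 of the 41 genes. The core of the element was searched as GAAA, any 2 bases and GAAA again, on both strands, so that a match on the other strand shows TTTC in place of each GAAA. It stood in the windows of 14 of 29 genes (48.3%) and in those of 3.99% of the 27025 genes with a window. The longer repeat of 3 GAAA units with the same spacing, every match of which also holds the shorter core, was found in 3 of 29 genes (10.3%) against 0.13% of all genes. The gamma-activated site core TTCNNNGAA, which reads the same on both strands, was found in 6 of 29 (20.7%) against 9.55%. The 250 bases before the start of 5 genes taken up below are printed 5′ to 3′ along each gene, with matches to the ISRE core in capitals. 
Isg15, chr4:156200819-156201068, minus strand: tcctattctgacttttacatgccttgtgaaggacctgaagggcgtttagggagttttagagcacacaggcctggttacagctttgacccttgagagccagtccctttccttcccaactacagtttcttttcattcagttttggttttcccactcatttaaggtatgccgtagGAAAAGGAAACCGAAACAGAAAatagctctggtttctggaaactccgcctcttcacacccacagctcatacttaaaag
Ifit3, chr19:34583279-34583528, plus strand: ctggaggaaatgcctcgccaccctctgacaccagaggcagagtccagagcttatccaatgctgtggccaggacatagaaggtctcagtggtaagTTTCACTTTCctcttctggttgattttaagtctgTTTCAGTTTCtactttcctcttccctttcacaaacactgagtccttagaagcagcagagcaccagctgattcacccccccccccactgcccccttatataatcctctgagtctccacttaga
Oas3, chr5:120777660-120777909, minus strand: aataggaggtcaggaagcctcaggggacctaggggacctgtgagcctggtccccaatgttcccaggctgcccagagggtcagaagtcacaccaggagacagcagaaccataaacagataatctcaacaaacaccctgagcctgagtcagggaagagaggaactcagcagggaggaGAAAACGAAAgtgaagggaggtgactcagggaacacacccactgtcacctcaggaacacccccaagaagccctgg
Stat2, chr10:128270248-128270497, plus strand: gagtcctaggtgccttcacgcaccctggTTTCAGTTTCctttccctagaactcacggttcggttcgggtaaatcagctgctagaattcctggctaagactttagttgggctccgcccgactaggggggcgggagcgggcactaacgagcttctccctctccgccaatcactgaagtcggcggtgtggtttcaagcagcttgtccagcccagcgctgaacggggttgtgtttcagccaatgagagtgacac
Samd9l, chr6:3399572-3399821, minus strand: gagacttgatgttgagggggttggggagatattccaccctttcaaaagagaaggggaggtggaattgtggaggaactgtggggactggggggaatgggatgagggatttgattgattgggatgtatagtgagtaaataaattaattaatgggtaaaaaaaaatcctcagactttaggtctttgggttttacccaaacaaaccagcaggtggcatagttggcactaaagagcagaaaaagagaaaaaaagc
Isg15 held 3 overlapping matches, Ifit3 held 2, and Oas3 and Stat2 held 1 each, whereas the letters searched were not in this window of Samd9l. Shorter pieces around the matches of 7 other genes show how the core varies, and those of Ifitm3 and Eif2ak2 lie just after the RefSeq start.
Ifit1, chr19:34640785-34640813, plus strand: TTTCACTTTCcagtctcagTTTCAGTTTC
Oas1a, chr5:120907523-120907552, minus strand: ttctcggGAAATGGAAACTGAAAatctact
Bst2, chr8:71537580-71537609, minus strand: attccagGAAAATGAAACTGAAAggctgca
Rsad2, chr12:26456553-26456582, minus strand: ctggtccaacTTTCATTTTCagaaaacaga
Ifi207, chr1:173741831-173741860, minus strand: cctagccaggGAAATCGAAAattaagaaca
Ifitm3, chr7:141010715-141010743, minus strand: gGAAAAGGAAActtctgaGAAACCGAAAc
Eif2ak2, chr17:78882535-78882564, minus strand: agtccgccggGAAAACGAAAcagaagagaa
A match is a description of the letters, and binding was not measured.

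The genes are spread over 15 chromosomes, and some lie in short clusters. In GENCODE M21 (GRCm38) Ifit2, Ifit3, Ifit3b and Ifit1 lie in this order on the plus strand of chromosome 19, from 34550694 to 34650009. Oas2, Oas3 and Oas1a lie on the minus strand of chromosome 5 between 120730333 and 120907521. Ifi207 and Ifi204 lie 5545 bases apart on chromosome 1, and Rsad2 and Cmpk2 face away from each other on chromosome 12 with 12751 bases between them. Some of these genes cannot be counted cleanly with reads of 50 bases. Among all 50-base windows of the transcripts, 57.57% of those of Oas1a also occurred in another gene, as did 51.24% for Ifit3, 44.95% for Ifit3b, 20.02% for Ifi204, 12.48% for Herc6, 11.63% for Rtp4 and 10.02% for Ifitm3. The values of these 7 genes are therefore uncertain. Of the exonic bases of Parp9, 9.40% lie opposite exons of Dtx3l, and 16.79% of those of Ifi35 lie opposite exons of a predicted gene, so these are uncertain too unless the counting used strand, on which the sources used here are silent.

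Counts were rounded expected counts, scaled between libraries by TMM (a trimmed mean of ratios) and given as CPM, the count per library scaled to a fixed sum. Total counts ran from 43.66 to 58.19 M per library. The sample titles number the libraries, and numbers 1 to 11 hold 3 young, 2 old and 5 old repopulated libraries, while 12 to 24 hold 4 young, 3 old, 3 old repopulated and each young repopulated library. What these runs of numbers stand for is not stated in the labels, and values are also shown within each. Nothing in the labels says that each library came from another animal, so p-values measure the spread between these libraries. Microglia markers were high in all libraries: the summed level of 10 of them was 29048 to 35117 CPM in young, 24876 to 29029 in young repopulated, 11003 to 28885 in old and 10399 to 32439 in old repopulated libraries. In bulk samples, fewer cells of a type and less RNA per cell cannot be told apart. Young replicate 3 had the fewest genes with a count, 16399, where the other libraries had 17620 to 22208.

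Levels between genes are compared per length, in TPM (transcript abundance per length, scaled to a fixed library sum). In young microglia the mean was highest for Lgals3bp, a secreted galectin-binding glycoprotein, at 1239 TPM. Ifi27l2a followed at 497, Bst2, which tethers budding virus to the cell, at 456, and Ifitm3, which blocks fusion of virus in endosomes, at 215 TPM. The lowest were Samd9l at 6.96, Oas3 at 5.11 and Ifi44 at 3.75 TPM. In the old group the order changed at the bottom: Oas3 had 25.04 and Samd9l 24.6 TPM, above Cmpk2 at 20.2.

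**Figure D1:**
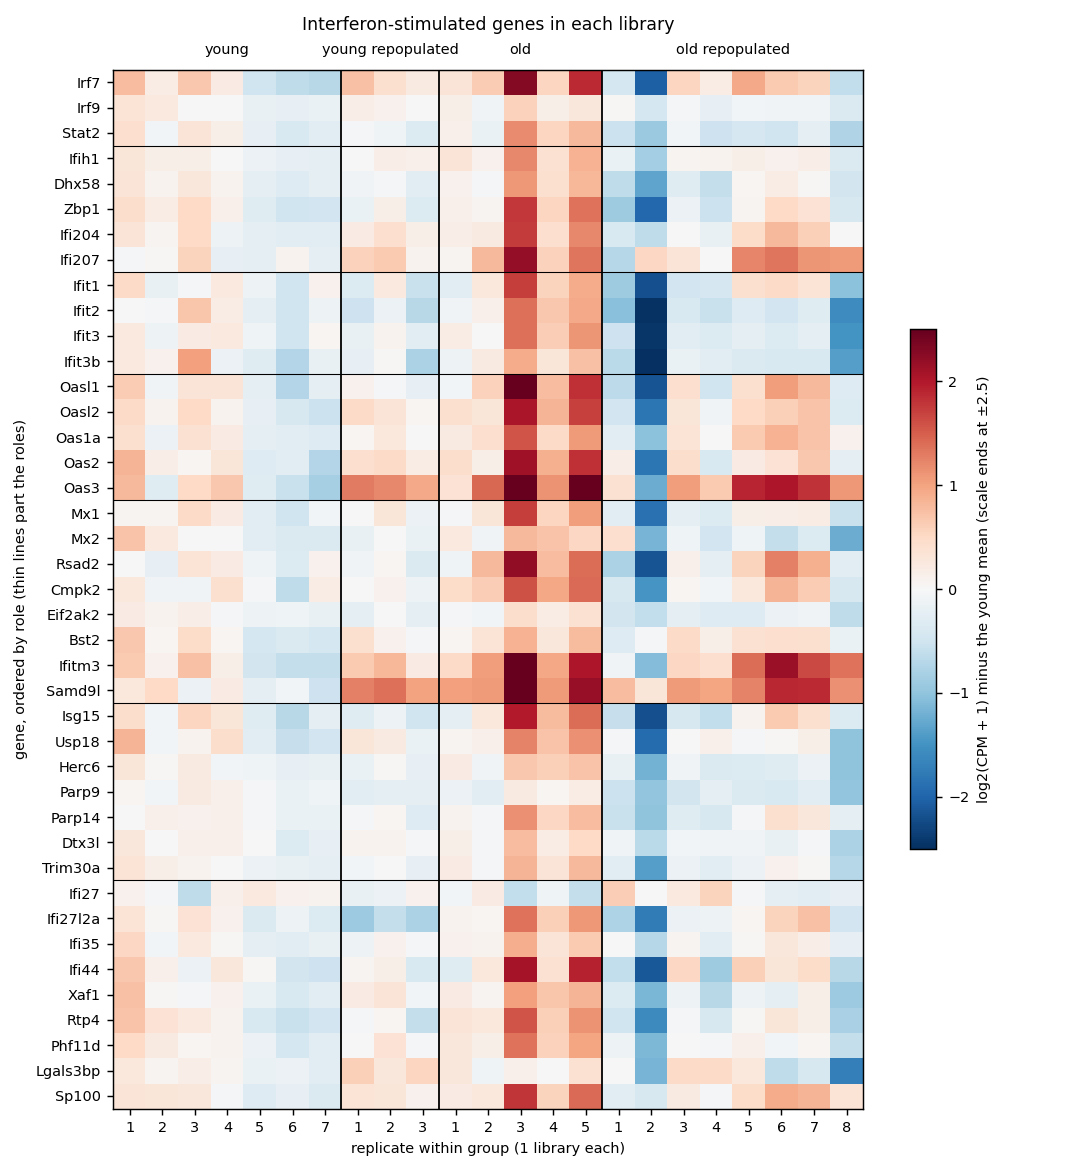
Each row is 1 gene and each column 1 library; colour gives log2(CPM + 1) minus the mean of the 7 young libraries, with red above and blue below that mean, and the colour scale ends at ±2.5. Old replicates 3, 4 and 5 are red in nearly every row (40 of 41 genes above the young mean in each), and old repopulated replicate 2 is blue (3 of 41 above).

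The old libraries were not alike. Old replicate 3 held the highest old value for 38 of the 41 genes. It exceeded every young library in 37 genes, replicate 5 in 36 and replicate 4 in 24, whereas replicate 2 did so in 7 and replicate 1 in 4. Over all genes tested, the share above every young library was 25.6, 20.0, 14.2, 15.9 and 12.5% in replicates 3, 5, 4, 2 and 1. The median gene stood at 1.37, 1.04 and 0.56 above the young mean on the log2(CPM + 1) scale in old replicates 3, 5 and 4. In replicates 1 and 2 it stood at 0.15 in each. Replicates 1 and 2 belong to library numbers 1 to 11, and the 3 higher ones to 12 to 24.

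The old repopulated libraries spread further, and in both directions. Replicates 5, 6 and 7 exceeded every young library in 9, 14 and 13 genes, where 23.1, 26.9 and 23.9% of all genes tested did so. Replicate 2 lay below every young library in 37 of 41 genes and replicate 8 in 23, where 18.2 and 21.4% of all genes tested did so. The median gene stood between -1.18 (replicate 2) and 0.30 (replicate 6). The ratio of the highest to the lowest library, taken as a median over the genes, was 3.87 in old repopulated, 2.499 in old, 1.93 in young and 1.28 in young repopulated libraries, groups of unequal size. The young repopulated libraries lay close to the young ones, with median positions of 0.00, 0.11 and -0.15. They all belong to numbers 12 to 24, where the young libraries had a median position of -0.23, against 0.25 in numbers 1 to 11.

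In old against young microglia, 6 of 41 genes were higher and none was lower (edgeR quasi-likelihood test, Benjamini-Hochberg adjusted p under 0.05 over 18720 genes). Over all genes tested 2.83% were called, 2.60% as higher. The 6 were Samd9l, Oas3, Ifitm3, Ifi207, Cmpk2 and Sp100. The difference was positive for 40 of 41 genes, with a median log2 fold change of 0.73 against -0.01 for all genes, and Ifi27 at -0.23 was the exception. At an unadjusted p under 0.05 there were 34 of them, where 15.3% of all genes tested were.

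Samd9l, which restrains viral translation and cell growth, had the smallest adjusted p. The old libraries, replicates 1 to 5, had 44.1, 45.5, 146, 45.0 and 99.4 CPM, and the young libraries ran from 14.5 over a median of 20.2 to 30.3 CPM. Every old library was above every young one. Samd9l was 3.51-fold higher in old microglia, a log2 fold change of 1.81 (± 0.30 SE, adjusted p = 0.00367 by edgeR). It was the 1 gene called in each of the 23 fits that left out a library. Cmpk2, a mitochondrial nucleotide kinase induced beside Rsad2, was the only other gene whose groups did not overlap, where 1.43% of all genes were separated in this direction. Its old libraries had 22.5, 25.01, 50.3, 32.2 and 44.3 CPM and its young libraries 9.90 to 21.5 (median 15.4). Its log2 fold change was 1.09 (± 0.29 SE, adjusted p = 0.0448 by edgeR).

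Oas3, one of the synthetases that make 2′-5′ oligoadenylate and so switch on RNase L, showed the largest fold change. It had 16.6, 35.9, 142, 29.0 and 109 CPM in old libraries and 6.75 to 22.9 (median 10.1) in young ones. Old replicate 1 lay within the young range and replicates 3 and 5 far above it. The log2 fold change was 2.25 (± 0.51 SE, adjusted p = 0.0177 by edgeR), and the call was kept in 21 of the 23 fits without 1 library. The other 4 members of its family differed by 0.82 to 1.47 on the log2 scale and were not called. Oasl1, which limits translation of Irf7, had 13.7, 22.02, 94.0, 25.2 and 53.4 CPM in old libraries against 8.29 to 22.8 in young ones.

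Ifitm3 had 105, 156, 504, 149 and 312 CPM in old libraries, against 49.6 to 126 (median 81.2) in young ones. Ifi207, a protein of the AIM2-like family, had 147, 245, 647, 208 and 353 CPM against 120.1 to 207 (median 137). Sp100, a component of nuclear PML bodies, had 119, 123, 355, 152 and 275 CPM against 79.7 to 129 (median 101). In all of them old replicate 1 lay within the young range and replicates 3 and 5 were the highest. The log2 fold changes were 1.60 for Ifitm3 (± 0.44 SE, adjusted p = 0.0472 by edgeR), 1.17 for Ifi207 (± 0.32 SE, adjusted p = 0.0467 by edgeR) and 0.97 for Sp100 (± 0.26 SE, adjusted p = 0.0422 by edgeR).

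The transcription factors of the programme were not called in this comparison. Irf7, the factor that amplifies the interferon response, had 123, 154, 484, 144 and 361 CPM in old libraries and 60.2 to 168 (median 113) in young ones, a log2 fold change of 1.25 (± 0.41 SE, adjusted p = 0.109 by edgeR). Stat2 and Irf9, which encode subunits of ISGF3, differed by 0.56 and 0.22. The ubiquitin-like modifier Isg15 had 31.7, 44.7, 150.2, 64.8 and 99.6 CPM in old libraries against 22.4 to 54.2 in young ones, and its log2 fold change of 1.02 was not called (edgeR adjusted p = 0.168). None of the 4 Ifit genes, which bind viral RNA and hold back its translation, was called, at differences of 0.38 to 0.80.

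Of these 6 calls, that of Sp100 was made in 12 of the 23 fits without 1 library and those of Cmpk2, Ifi207 and Ifitm3 in 8 each. The count of 6 moved with single libraries. It was 1 without old replicate 3 or 5. It was 2 without young replicate 2, 4, 5, 6 or 7, young repopulated replicate 1 or 3, or old repopulated replicate 5, and 3 without young replicate 1, young repopulated replicate 2 or old repopulated replicate 3. It was 12 without old replicate 2, 14 without old repopulated replicate 2 and 16 without old replicate 1. The median log2 fold change ran from 0.49 to 0.87 over these fits. DESeq2 called 15 genes and voom 34, where they called 5.11 and 12.6% of all genes.

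**Figure D2:**
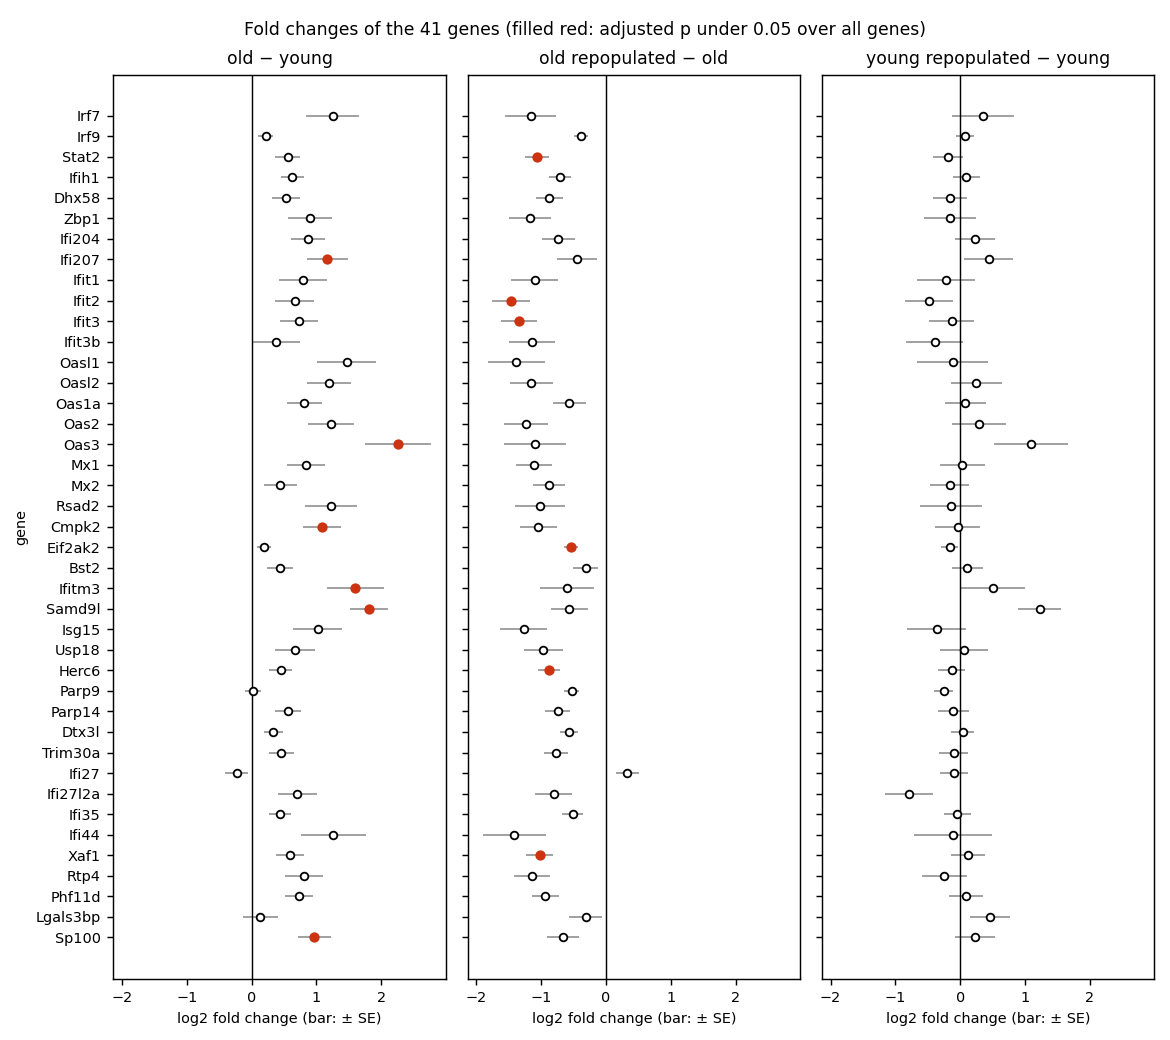
Points give each gene's log2 fold change and bars ± SE in 3 comparisons, and filled red points passed an adjusted p under 0.05 over all genes. The first 2 panels share the old libraries; 40 of 41 points lie above 0 in old against young, 40 of 41 lie below 0 in old repopulated against old, and the third panel is centred near 0.

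In old repopulated against old microglia, 6 of 41 genes were lower and none was higher by the same test, where 0.278% of all genes tested were called and 0.214% called as lower. The 6 were Stat2, Ifit2, Ifit3, Eif2ak2, Herc6 and Xaf1. None of them was among the 6 called in old against young, and both comparisons share the 5 old libraries, so that a high old library raises one difference and lowers the other. The difference was negative for 40 of 41 genes (all but Ifi27), with a median of -0.88 on the log2 scale against 0.00 for all genes, and 35 genes had an unadjusted p under 0.05, as did 10.4% of all genes tested.

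Stat2 had the smallest adjusted p. Its old repopulated libraries ran from 52.6 over a median of 70.2 to 96.0 CPM, and its old libraries had 109.7, 89.3, 230.4, 146 and 178 CPM. Old replicate 2 was the 1 old library within the repopulated range. The log2 fold change was -1.06 (± 0.18 SE, adjusted p = 0.0165 by edgeR), which puts the repopulated level at 0.479 of the old level, and 21 of the 23 fits without 1 library kept the call.

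Ifit2 ran from 24.7 to 114 CPM (median 98.2) in old repopulated libraries and had 133, 154, 366, 224 and 274 CPM in old ones. Ifit3 ran from 17.3 to 83.8 CPM (median 76.9) against 112, 97.7, 255, 151 and 210.0 CPM. For both, every old repopulated library was below every old one. Their log2 fold changes were -1.46 (± 0.29 SE, adjusted p = 0.0327 by edgeR) and -1.34 (± 0.28 SE, adjusted p = 0.0394 by edgeR). Groups were also separated for Ifit3b, Eif2ak2, Dtx3l and Phf11d, which makes 6 of 41 genes, where 0.433% of all genes tested were separated downwards.

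Eif2ak2, the kinase PKR that halts translation when it binds double-stranded RNA, ran from 66.6 to 98.2 CPM (median 83.7) in old repopulated libraries and had 102, 99.9, 143, 119 and 137 CPM in old ones. Its change was smaller than that of the Ifit genes, -0.54 on the log2 scale, and its spread was smaller too (± 0.11 SE, adjusted p = 0.0305 by edgeR). Herc6, the main ligase for ISG15 in mice, ran from 25.8 to 56.2 CPM against 68.7, 56.1, 95.9, 90.9 and 98.5 CPM (log2 fold change -0.88 ± 0.17 SE, adjusted p = 0.0305 by edgeR). Xaf1, a pro-apoptotic protein, ran from 13.4 to 33.9 CPM against 35.6, 32.1, 63.7, 50.1 and 56.3 CPM (-1.02 ± 0.21 SE, adjusted p = 0.0394 by edgeR). In Herc6 and Xaf1 old replicate 2 alone lay within the repopulated range.

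Among the largest differences, those of Ifi44 and Oasl1 were not called. Ifi44 had 4.17, 6.70, 25.9, 7.31 and 23.2 CPM in old libraries and 0.470 to 8.61 (median 5.01) in old repopulated ones, a log2 fold change of -1.41 (± 0.49 SE, adjusted p = 0.233 by edgeR). Oasl1 ran from 2.44 to 30.7 CPM in old repopulated libraries (-1.38 ± 0.44 SE, adjusted p = 0.190 by edgeR). For both, old replicates 3 and 5 alone lay above every old repopulated library. Of the 5 OAS genes none was called, nor was any of the 5 sensor genes Ifih1, Dhx58, Zbp1, Ifi204 and Ifi207.

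Of the other 5 calls, those of Ifit2 and Herc6 were made in 18 of the 23 fits without 1 library, that of Eif2ak2 in 17, that of Ifit3 in 10 and that of Xaf1 in 8. The count of 6 was 0 without old replicate 4 or 5, 1 without old replicate 3 or without old repopulated replicate 4 or 8, and 12 without old replicate 2. It was between 4 and 9 without any other single library. With only the old and old repopulated libraries in the fit it was 0, where 0% of all genes were called. DESeq2 called 21 genes and voom 11, where they called 1.55 and 2.21% of all genes.

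**Figure D3:**
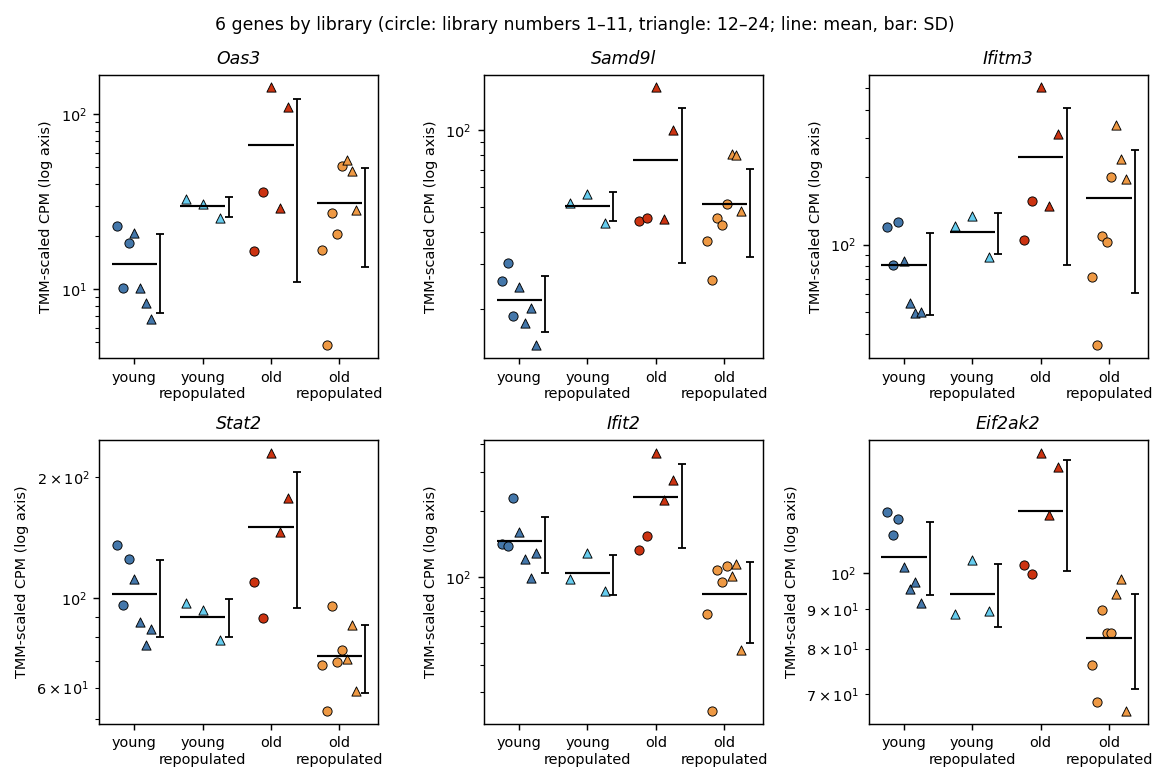
TMM-scaled CPM on a log axis for 6 genes, 1 point per library, with circles for library numbers 1 to 11 and triangles for 12 to 24; lines mark group means and bars ± SD. Samd9l in old libraries (44.1 to 146 CPM) clears the young range (14.5 to 30.3), and Ifit2 in old repopulated libraries (24.7 to 114) stays below the old range (133 to 366).

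In young repopulated against young microglia no gene of the 41 was called, where 1.34% of all genes tested were. An unadjusted p under 0.05 was reached by 2 of 41 genes, and by 15.1% of all genes tested. DESeq2 called Samd9l (4.20% of all genes), and limma voom with sample quality weights called Samd9l and Lgals3bp (13.8%). Samd9l alone was called by edgeR without old replicate 3 or without old repopulated replicate 2. With only these groups in the fit, edgeR called 3 of 41 (Samd9l, Lgals3bp and Ifi27l2a) and 7.50% of all genes. The median log2 fold change was -0.04. Samd9l had 52.0, 56.4 and 43.4 CPM in the 3 young repopulated libraries, all above the highest young library at 30.3 (log2 fold change 1.22 ± 0.33 SE, adjusted p = 0.0710 by edgeR). Oas3 had 32.9, 30.7 and 25.6 CPM, also above every young library (1.09 ± 0.57 SE, adjusted p = 0.378 by edgeR). Ifi27l2a, a small mitochondrial protein of the IFI27 family, went the other way with 63.7, 78.8 and 68.8 CPM against 93.7 to 154 (-0.80 ± 0.37 SE, adjusted p = 0.308 by edgeR). Without overlap 3 genes were higher (Samd9l, Oas3 and Lgals3bp) and 2 lower (Ifi27l2a and Parp9). Of all genes tested, 5.97 and 6.11% were separated upwards and downwards in these groups of 3 and 7.

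In old repopulated against young microglia 5 of 41 genes were called, 1 higher and 4 lower, where 15.2% of all genes tested were called (9.29% higher, 5.92% lower). The share of members called, 5 of 41, was thus near that of all genes. Samd9l ran from 26.1 to 80.4 CPM (median 46.7) in old repopulated libraries and was higher than in young ones by 1.24 on the log2 scale (± 0.27 SE, adjusted p = 0.00426 by edgeR). Oas3 and Ifitm3, whose differences were also among the 3 largest, stood at 1.16 (± 0.46 SE, adjusted p = 0.0849 by edgeR) and 1.004 (± 0.39 SE, adjusted p = 0.0860 by edgeR). Parp9, an inactive mono-ADP-ribosyltransferase that works with the ligase Dtx3l, ran from 64.1 to 109 CPM (median 94.7) in old repopulated libraries and from 114 to 150.2 in young ones, with no overlap, where 1.26% of all genes tested were separated downwards. Its log2 fold change was -0.51 (± 0.11 SE, adjusted p = 0.00417 by edgeR). Eif2ak2 (-0.35, edgeR adjusted p = 0.0199), Stat2 (-0.51, edgeR adjusted p = 0.0477) and Ifit2 (-0.79, edgeR adjusted p = 0.0492) were lower by the same test. The calls of Samd9l and Parp9 were kept in all 23 fits without 1 library and that of Eif2ak2 in 22, whereas those of Stat2 and Ifit2 were kept in 5.

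This count of 5 was 2 without young replicate 2. It was 3 without young replicate 1, 3, 4 or 5, any 1 young repopulated library, old replicate 4 or 5, or old repopulated replicate 4, 6, 7 or 8, and 8 without old repopulated replicate 1. Without the filter on low counts 3 of 41 were called, Samd9l, Parp9 and Eif2ak2 (7.13% of all genes), 1 higher and 2 lower. By voom 8 were called (35.5%), 7 of them higher and 1 lower, so that the balance of directions differed from the 1 higher and 4 lower by edgeR. Against young repopulated libraries, old repopulated ones differed in 0 of 41 genes by edgeR (0% of all genes tested), with a median difference of -0.17. An unadjusted p under 0.05 was reached by 2 of 41 genes, and by 11.7% of all genes tested. DESeq2 called 0 (0.433% of all genes) and voom 2, Ifi27l2a and Lgals3bp (17%). Dtx3l alone had groups without overlap, lower in old repopulated libraries, where 1.05% of all genes tested were separated downwards.

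Whether repopulation changed these genes more in old than in young mice was tested as an interaction. No gene was called by edgeR, and 0% of all genes tested were. The interaction was negative for 40 of 41 genes with a median of -0.88, and 23 genes had an unadjusted p under 0.05, where 8.24% of all genes tested did. DESeq2 and voom each called 1 gene, Samd9l, against 0.219 and 0.807% of all genes. The largest values were those of Oas3 at -2.18 (± 0.75 SE, adjusted p = 0.462 by edgeR) and Samd9l at -1.79 (± 0.44 SE, adjusted p = 0.336 by edgeR).

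**Figure D4:**
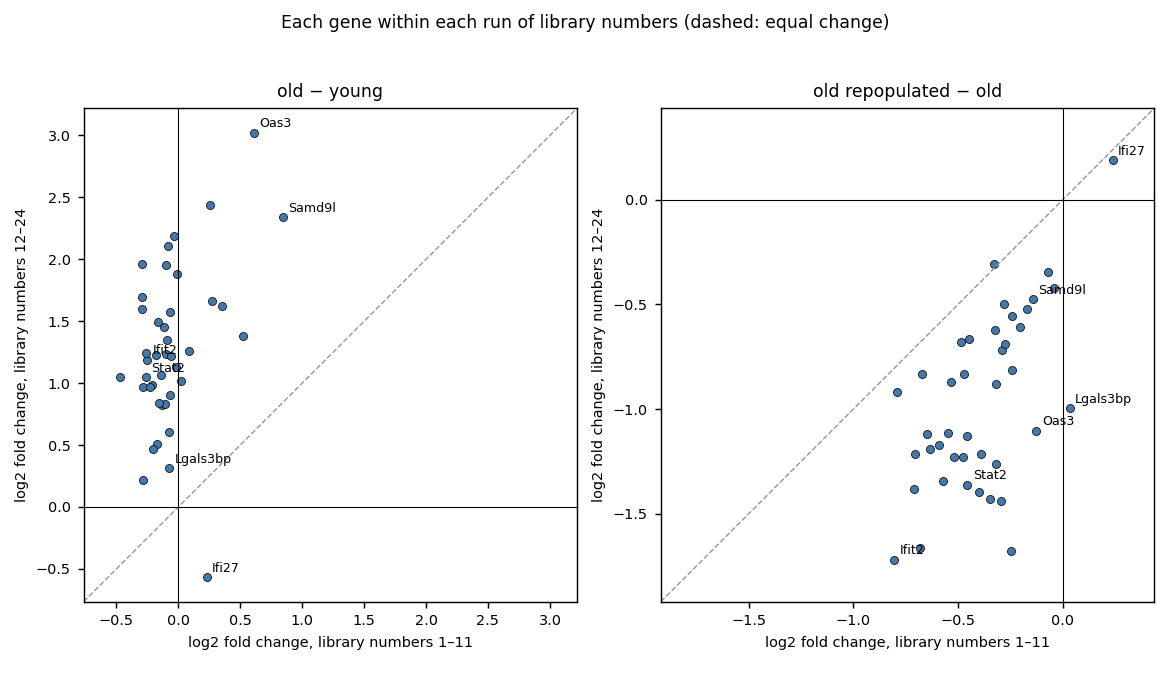
Each point is 1 gene, with its log2 fold change among library numbers 1 to 11 on the x axis and among numbers 12 to 24 on the y axis; the dashed line marks equal change. In old against young most points lie left of 0 on the x axis (32 of 41 negative) and above 0 on the y axis (40 of 41 positive), and in old repopulated against old most lie below 0 on both.

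Within the runs of library numbers the comparison of old with young libraries split. Among numbers 12 to 24 (3 old, 4 young), 38 genes were higher and 1, Ifi27, was lower, where 15.7% of all genes tested were called (10.4% higher), and the median log2 fold change was 1.22. Among numbers 1 to 11 (2 old, 3 young), no gene was called by edgeR, where 0.00533% of all genes were. There 1 gene had an unadjusted p under 0.05, as did 2.89% of all genes, and the median was -0.10 with 32 of 41 negative. Oas3 differed by 3.02 (± 0.48 SE) in the higher numbers and by 0.61 (± 0.70 SE) in the lower ones. Samd9l differed by 2.34 (± 0.32 SE) and 0.84 (± 0.26 SE), and was positive in both. Isg15 stood at 1.70 (± 0.30 SE) and -0.30 (± 0.49 SE).

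The difference between the runs was then tested directly, in a fit with 1 mean for each group in each run. None of the 41 genes was called for a difference between runs in the old-against-young change, and 0% of all genes tested were (smallest adjusted p of a member by edgeR = 0.531). The difference was positive for 40 of 41 genes with a median of 1.32, and 34 had an unadjusted p under 0.05. How far all genes shifted in the same way is not given here, so these counts do not set the 41 genes apart. Old libraries of the higher numbers differed from those of the lower ones by a median of 0.92, and young libraries by -0.41. With the run as a term beside the group, 3 genes (Samd9l, Oas3 and Cmpk2) were called in old against young, where 3.30% of all genes were.

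The difference between old repopulated and old libraries had the same median sign in both runs. In old repopulated against old libraries, the median log2 fold change was -0.99 among numbers 12 to 24, with 27 genes lower where 12.7% of all genes tested were called (7.06% lower). Among numbers 1 to 11 it was -0.39 with 39 of 41 negative and 0 called by edgeR, where 0% of all genes were called. An unadjusted p under 0.05 was found there for 3 genes, and for 2.42% of all genes. Ifit2 stood at -1.72 (± 0.30 SE) and -0.80 (± 0.43 SE), and Stat2 at -1.36 (± 0.19 SE) and -0.46 (± 0.21 SE). With the run as a term, 6 genes were called as lower, against 0.609% of all genes. The interaction could be fitted within numbers 12 to 24 alone, where 25 genes were called as negative and 8.87% of all genes tested were called (4.75% negative). Old repopulated against young libraries went in opposite directions in the runs. Among numbers 12 to 24 the median was 0.24 with 26 of 41 positive, and 11 genes were called, 8 higher and 3 lower (41.1% of all genes). Among numbers 1 to 11 the median was -0.52 with 37 of 41 negative, 0 were called (0.0107% of all genes) and 16 had an unadjusted p under 0.05 (11% of all genes). In young repopulated against young libraries of the higher numbers the median was 0.17 with 30 of 41 positive, against -0.04 with 19 positive over all libraries. There 1 gene was called (9.30% of all genes) and 10 had an unadjusted p under 0.05 (24.6% of all genes), and in old repopulated against young repopulated ones 4 (36.3%).

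Ifi27 was the exception among the 41 genes. It lies 1927 bases from Ifi27l2a on chromosome 12, on the other strand, and both encode small proteins of the IFI27 family. Ifi27 had 35.9, 44.01, 24.2, 35.3 and 24.6 CPM in old libraries, with replicates 3 and 5 the lowest, while Ifi27l2a had 128, 125, 308, 181 and 255 CPM, with the same replicates the highest. The log2 fold changes in old against young were -0.23 (± 0.18 SE) and 0.71 (± 0.30 SE), neither called. Lgals3bp also stayed near the young level in old libraries (1086 to 1532 CPM against 985 to 1414), and was lowest in old repopulated replicates 8, at 361 CPM, and 2, at 524 CPM.

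Few of the genes that send and carry the interferon signal were called in old against young or old repopulated against old. Of all genes tested, 2.83 and 0.278% were called in these comparisons. Of 21 interferon genes, only Ifnb1, for interferon beta, passed the filter on low counts, and it lay at 2.12 CPM or below in every library, with no value called. Ifng, for interferon gamma, was at or below 0.155 CPM. Of 6 receptor genes none was called in old against young or old repopulated against old. Ifnar1 and Ifnar2 differed by 0.20 and 0.07 in old against young and by 0.26 and -0.07 in old repopulated against old. The kinases Jak1 and Tyk2 differed by 0.00 and 0.09 in old against young.

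Among 13 further sensors and adaptors, Tlr8 was higher in old against young and Ddx58 was lower in old repopulated against old. Ddx58, which encodes the RNA sensor RIG-I, had 77.8, 68.1, 153, 101 and 127 CPM in old libraries and 24.6 to 74.1 in old repopulated ones (log2 fold change -0.91 ± 0.20 SE, adjusted p = 0.0490 by edgeR). Tlr8, an endosomal receptor for RNA, was 3.40 to 5.55 CPM in young libraries. It was 37.2, 42.0 and 19.2 CPM in young repopulated and 7.52, 39.2, 101, 15.6 and 46.0 CPM in old libraries, so that no value of either group fell in the young range. It was higher in old (log2 fold change 3.22), young repopulated (2.86) and old repopulated libraries (3.47) than in young ones (adjusted p = 0.00423, 0.0189 and 0.000448 by edgeR). Of all genes tested, 2.83, 1.34 and 15.2% were called in these comparisons. The DNA sensor cGAS (Mb21d1) and its adaptor STING (Tmem173) differed by -0.10 and -0.30 in old against young, not called. Against young libraries, in old repopulated ones Mb21d1 (-0.26), Tlr3 (-0.75) and Ticam1 (-0.31) were lower (edgeR adjusted p = 0.0224, 0.0439 and 0.0232), and the receptor genes Ifnlr1 (3.18) and Il10rb (0.35) were higher (edgeR adjusted p = 0.0201 and 0.0279). There 5.92% of all genes tested were called as lower and 9.29% as higher. Of 10 genes that restrain the response, Samhd1, a phosphohydrolase that depletes nucleotides, was higher in old against young (1.14 ± 0.30 SE, adjusted p = 0.0378 by edgeR).

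A second list of 56 interferon-stimulated genes, none of them among the 41, was counted the same way, and 54 were tested. Like the 41, it was chosen with earlier results of these data known, and it was counted in the same libraries. In old against young 13 of 54 were higher and 0 lower, with 51 positive and a median of 0.42, where 2.60% of all genes were called as higher, 48.5% were positive and the median was -0.01. The 13 included 5 genes of the AIM2-like family and 3 of the Ifitm family. Oas1g and Ifi211, among the 13, share sequence with genes of the 41. Of the 50-base windows of Oas1a 57.57% also occurred in Oas1g, and 14.83% of those of Ifi204 in Ifi211. The counts of these genes are therefore not fully separate from those of the 41. As examples chosen after their values were seen, Ifi203 stood at 3.80 (± 0.64 SE, adjusted p = 0.00368 by edgeR), Ifi213 at 2.26 (± 0.42 SE, adjusted p = 0.00690 by edgeR) and Ifitm6 at 3.64 (± 0.71 SE, adjusted p = 0.00769 by edgeR). Of the 54, only Pml was called in old repopulated against old, as lower (-0.74 ± 0.13 SE, adjusted p = 0.0189 by edgeR), with 52 negative and a median of -0.59, where 0.214% of all genes were called as lower. Of 11 genes that respond mainly to interferon gamma, Ciita and Nlrc5, the regulators of MHC class II and class I genes, were higher in old against young, and Gbp2 was lower in old repopulated against old.

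Markers of monocytes, neutrophils, border-associated macrophages and dendritic cells were mostly higher in old than in young libraries. Markers of neurons, astrocytes, oligodendrocytes and endothelial cells were not: 3 of 3 neuron, 3 of 4 astrocyte, 2 of 3 oligodendrocyte and 3 of 4 endothelial markers tested were negative. Of the B cell markers 2 were positive and 2 negative. Among these 5 lists Flt1, an endothelial marker, alone was called, as higher. The 6 monocyte markers summed to 271 to 1619 CPM in young, 609 to 1072 in young repopulated, 480 to 4280 in old and 351 to 7231 in old repopulated libraries, and none was at 0 in any library. Much of the sum was Fn1, with 1291 of 1308 CPM in young replicate 7 and 6166 of 7231 in old repopulated replicate 8. Ly6c2 ran from 0.241 to 7.76 CPM in young libraries. Of the 6, 3 (Ly6c2, Ccr2 and Plac8) were called as higher in old against young. None was called in old repopulated against old, where the differences ran from -1.92 to 0.96 with a median of 0.10. The 3 negative ones were Ly6c2, Ccr2 and Plac8, the same that were called in old against young. Chil3, Fn1 and Vcan were positive. The 41 genes had a median of -0.88 in this comparison. Ly6c2 had 7.56, 86.8, 378, 15.9 and 208 CPM and Ccr2 had 16.9, 114, 562, 43.8 and 208 CPM in old replicates 1 to 5, with replicates 3 and 5 the highest in both. In old repopulated replicates 6, 7 and 8 the median member stood at 0.30, 0.19 and -0.46, and the monocyte markers differed in their order. Ly6c2 had 86.4, 68.6 and 40.1 CPM there and Plac8 148, 92.1 and 56.6, both falling in the order of the median member. Ccr2 had 452, 286 and 390 CPM, and Chil3, Fn1 and Vcan were likewise higher in replicate 8 than in 7. Of the other lists, T and NK cell markers summed to at most 4.78 CPM. In old against young 3 of the 4 tested were positive (median 1.23), none called. The 5 plasmacytoid dendritic cell markers summed to 2.31 to 17.3 CPM, and 2 of the 3 tested were negative in old against young, none called. Of these 5, Klk1 was at 0 in every library and Ly6d at 0.428 CPM or below, Pacsin1 and Cox6a2 reached 12.5 and 9.76 CPM, and Pacsin1 was called as lower in old repopulated against young. The 6 dendritic cell markers summed to 5.11 to 11.5 CPM in young, 14.6 to 31.2 in young repopulated, 12.03 to 140 in old and 9.27 to 91.5 in old repopulated libraries. Old replicates 3 and 5 were the highest old libraries, at 139.9 and 50.6 CPM, and 3 of the 6 (Flt3, Cd209a and Ccr7) were called as higher in old against young. The 8 neutrophil markers summed to 10.6 to 87.0 CPM in young, 67.9 to 161 in young repopulated, 86.4 to 221 in old and 70.7 to 313 in old repopulated libraries, with 4 of 8 called as higher in old against young. The 7 markers of border-associated macrophages summed to 58.2 to 223, 295 to 411, 182 to 878 and 70.3 to 1235 CPM in the same order. Of these 2 were called as higher in old against young, and in old repopulated against old none was called, with 5 of 7 positive and a median of 0.56. Of the neutrophil markers 7 of 8 were negative in old repopulated against old (median -0.30). Of the dendritic cell markers 4 of 6 were negative there (median -0.23), and none of either list was called. The 10 microglia markers were all negative in old against young (median -0.61, Fcrls called as lower) and in old repopulated against young (median -0.77, 5 called as lower). Of all genes tested, 2.83% were called in either direction in the first comparison, 2.60% as higher, and 5.92% were called as lower in the second. Among old libraries the microglia sums were lowest in replicates 3 and 5, at 11003 and 18804 CPM. The part of any of these cells in the differences was not tested.

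**Figure D5:**
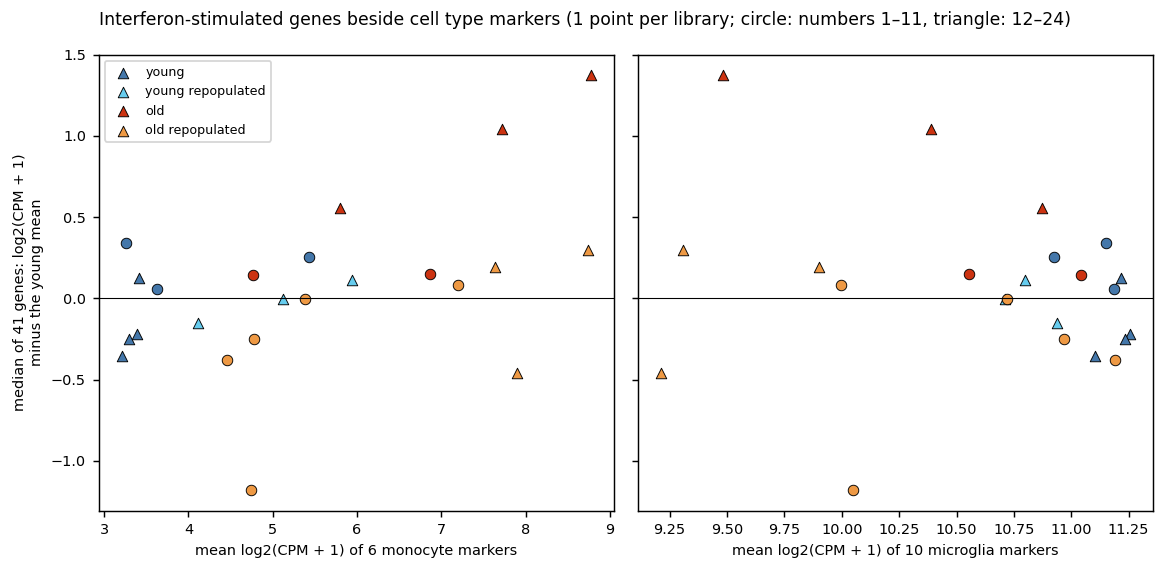
Each point is 1 library, with the median of the 41 genes relative to the young mean on the y axis and the mean log2(CPM + 1) of 6 monocyte (left) or 10 microglia markers (right) on the x axis. Old replicates 3 and 5 have the highest medians (1.37 and 1.04), with monocyte means of 8.77 and 7.71 and microglia means of 9.48 and 10.39. Old repopulated replicate 8 has a median of -0.46, with a monocyte mean of 7.90 and a microglia mean of 9.21.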

How the data were processed

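The deposited values are expected counts and TPM per gene from RSEM, made by the authors, whose processing notes as listed by the submitters name FastQC 0.11.5, STAR, RSEM, limma and build GRCm38. Per the labels' protocols, poly(A) RNA from an input between 2.4 and 147 ng was made into stranded libraries and read singly over 50 nt. The 41 members and all lists were chosen with earlier results of these data known. Expected counts, 87.26% of them whole within 1e-06, were rounded, filtered by edgeR's filterByExpr to 18720 genes and scaled by TMM. Total counts of 43.66 to 58.19 M per library set the counting precision. The 6 contrasts were tested with the quasi-likelihood test of edgeR 4.0.16 (R 4.3.3) over all 23 libraries without covariates, with SE as the log2 fold change over the root of F, and Benjamini-Hochberg adjustment over all genes at 0.05. The fit was tested on simulated data. Groups came from the labels. Genes given in full were, per contrast, up to 6 called members and the 3 largest changes with a mean of at least 5 CPM. Alternatives were RLE scaling, no filter, DESeq2 1.42.0, voom with sample quality weights in limma 3.58.1, fits on the groups compared, the run of library numbers as a term or alone, and leaving out each library. The test of the difference between runs was added after seeing the data. Coordinates come from GENCODE M21, which held the files' identifier version for 37 of 41 genes.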

Additional observations from a re-analysis of the deposited data

Results flagged for a closer look

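In 48 groups of libraries (16 of the genes given in full, in the groups of 4 to 10 libraries) a single library stood far from the rest of its group in 2 cases, where chance gives about 1 in 20. Young replicate 3 was the highest young library for Ifi207, at 207 CPM. Young replicate 1 was the highest young library for Xaf1, at 51.3 CPM.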

How the results depend on the processing

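The counts of genes called depended on the tool and on single libraries, and in some comparisons the direction depended on the run of library numbers. In old against young, 6 genes became 15 by DESeq2, 34 by voom, 3 with the run of library numbers as a term, 0 in numbers 1 to 11 and 39 in 12 to 24. In old repopulated against old, 6 became 21 by DESeq2, 11 by voom, 0 with only the groups compared, 0 in numbers 1 to 11 and 27 in 12 to 24. In young repopulated against young, 0 became 1 by DESeq2, 2 by voom, 3 with only the groups compared and 1 in numbers 12 to 24. In old repopulated against young, 5 became 3 without the filter, 8 by voom, 0 in numbers 1 to 11 and 11 in 12 to 24. Old repopulated against young repopulated gave 2 by voom and 4 in numbers 12 to 24, and the interaction gave 1 by DESeq2, 1 by voom and 25 in numbers 12 to 24. Leaving out 1 library gave 1 to 16, 0 to 12, 0 to 1 and 2 to 8 genes in the first 4 comparisons and 0 in the other 2. In old against young, 32 of 41 genes were negative among numbers 1 to 11, where 1 of 41 was over all libraries. Among the genes given in full for a comparison, the sign turned there for Sp100 in old against young (-0.068) and for Ifitm3 in old repopulated against young (-0.072). The cause was not tested. No paired analysis was possible because the replicate numbers were given in accession order and pair no libraries.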
